A study of Rattus norvegicus with 8 samples.

Results

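The miR-29 family is described here in small RNA sequencing of exosomes (secreted membrane vesicles) from rat intervertebral disc cells. Its members were taken by name from the deposited table, as the rat rows named rno-miR-29a-3p, rno-miR-29b-3p and rno-miR-29c-3p. They are 3 of 415 rat mature miRNA names there, and the counts of rows with the same mature name were summed. The series had 2 groups. One held 4 libraries of exosomes from nucleus pulposus cells (NPC), which make the soft matrix in the centre of the disc, and the other held 4 libraries of exosomes from nucleus pulposus progenitor cells (NPPC). The labels gave no treatment, strain, age or culture for either group, and did not say how progenitor cells were separated. Nor do they tell whether a group's libraries stem from different cultures or animals, so that the p-values reflect the spread among these libraries alone, and that spread may be technical.

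The miR-29 miRNAs are known as regulators of the extracellular matrix. They repress messenger RNAs of fibrillar collagens, elastin and fibrillin, and those of the DNA methyltransferases Dnmt3a and Dnmt3b, and TGF-beta signalling is known to lower them in fibroblasts. They are processed from hairpins that lie in pairs, miR-29a with miR-29b-1 and miR-29b-2 with miR-29c. A miRNA finds its targets mainly through its seed, bases 2 to 8 from the 5′ end. The deposited mature sequences are shown with the seed in capitals, because the whole family shares it and the members differ only behind it.
miR-29a-3p: tAGCACCAtctgaaatcggtta
miR-29b-3p: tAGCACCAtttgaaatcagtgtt
miR-29c-3p: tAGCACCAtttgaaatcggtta
With U read as T, all 3 were identical to the RefSeq mature sequences of assembly GRCr8, where 3 of 693 rat mature names hold this seed. Among the deposited rows, 4 held the seed, all of them rows of these members, and 0 rows named after other species or predicted as candidates did. Counted from the 5′ end, miR-29a-3p and miR-29c-3p differed by the single substitution C10T. miR-29a-3p and miR-29b-3p differed by C10T, G18A, T21G and A22T over 22 compared bases. miR-29b-3p and miR-29c-3p shared their first 17 bases. The GC content was 40.9% in miR-29a-3p, 34.8% in miR-29b-3p and 36.4% in miR-29c-3p.

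The deposited table placed 4 hairpins, and names no genome build for its coordinates. miR-29a lay at chr4:58343931-58344018 and miR-29b-1 at chr4:58344308-58344394, both on the minus strand with 289 bases between them. miR-29b-2 lay at chr1:38238372-38238461 and miR-29c at chr1:38238889-38239001, both on the plus strand with 427 bases between them. RefSeq's GRCr8 also annotates Mir29a beside Mir29b1 and Mir29b2 beside Mir29c, but puts the latter pair on another chromosome than the deposited table does. The hairpins of miR-29a and miR-29c are shown because both of their arms had a row under a rat name. Capitals mark the arms as the deposited table does.
miR-29a hairpin: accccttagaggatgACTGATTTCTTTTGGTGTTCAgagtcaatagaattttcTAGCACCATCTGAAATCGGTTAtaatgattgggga
miR-29c hairpin: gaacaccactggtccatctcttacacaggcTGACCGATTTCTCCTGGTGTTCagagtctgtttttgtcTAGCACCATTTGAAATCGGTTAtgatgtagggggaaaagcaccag
Nearly all counts came from the 3′ arm, the guide strand of these hairpins. The 3′ arm of miR-29a held 89009 counts over the 8 libraries and its 5′ arm, miR-29a-5p, held 12. These 12 counts were 5 in NPC replicate 2 and 7 in NPPC replicate 2. miR-29c-5p was listed in NPPC replicate 3 alone, with 8 counts. From the 5′ side of the miR-29b-1 hairpin, a row of 18 bases near the hairpin's start, under an opossum name, was listed in NPC replicate 4 alone, with 7 counts. No row was listed for the 5′ side of miR-29b-2.

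Library totals ran from 329011 to 1416940 counts, with the 4 deepest libraries all from NPPC. NPC replicate 1 was the shallowest and stood apart. Its TMM factor, a scaling factor that edgeR fits so that most miRNAs keep their level between libraries, was 1.83, against 0.837 to 1.02 in the others. The mesenchymal miRNAs expected of disc cells were present in every library, with all 5 listed and a summed share of 18.7% to 23.2% of counts in NPC and 15.9% to 17.8% in NPPC libraries. All 4 cartilage miRNAs were listed too, at 0.997% to 2.64% and 0.758% to 0.917%. Markers of other cell types were low. In CPM, counts in 1000000 of a library's total, the 3 red blood cell miRNAs summed to 66.9 to 275 in NPC and 121 to 842 in NPPC libraries, all 4 leukocyte miRNAs (miR-223-3p under a mouse name) to 30.4 to 332 and 107 to 215, and both endothelial ones to 443 to 739 and 411 to 630. Likewise 4 of 5 epithelial miRNAs (miR-141-3p was not listed) summed to 60.8 to 99.8 and 59.8 to 123, and 4 muscle miRNAs to 0 to 46.9 and 22.9 to 62.2. The 2 neural miRNAs summed to 0 to 85.6 and 25.6 to 72.7, and the liver miRNA miR-122-5p stood at 15.2 to 27.9 and 9.92 to 20.2. The part of such cells in the results below was not tested.

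miR-29a-3p supplied almost the whole family in both kinds of exosome, and its share of counts was higher in every NPPC library than in any NPC library. It held 2640, 7951.5, 7022 and 5605 counts in NPC replicates 1 to 4 and 11251.5, 15973, 19708 and 18858 in NPPC replicates 1 to 4. As a share of all counts this was 0.802%, 1.29%, 1.03% and 1.04% in NPC and 1.37%, 1.46%, 1.39% and 1.44% in NPPC libraries. The exact 95% binomial intervals, which cover counting error only, were narrow, from 0.772% to 0.833% in NPC replicate 1 and from 1.35% to 1.40% in NPPC replicate 1. The group means were 1.04% ± 0.198 (SD, n = 4) for NPC exosomes and 1.42% ± 0.0425 (SD, n = 4) for those of NPPC. miR-29a-3p ranked between 16th and 26th among all features in NPC libraries and between 13th and 17th in NPPC libraries. It made up 99.6% ± 0.265 (SD, n = 4) of family counts in NPC libraries and 99.5% ± 0.0420 (SD, n = 4) in NPPC exosomes.

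The series compared NPPC with NPC exosomes, and by edgeR the difference in miR-29a-3p did not pass the test over all features. In CPM scaled by TMM, miR-29a-3p stood at 4403, 12782, 11999.9 and 10287 in NPC replicates 1 to 4 and at 14287, 16642, 16072 and 17225 in NPPC replicates 1 to 4. NPC replicate 1 was the lowest library, and the groups did not overlap. The means were 9868 ± 3789 CPM (SD, n = 4) and 16056 ± 1270.2 CPM (SD, n = 4), with a log2 fold change of NPPC over NPC of 0.70 ± 0.30 (SE). The unadjusted p was 0.0488 and the Benjamini-Hochberg adjusted p over 444 features was 0.361 by the quasi-likelihood test of edgeR, which is two-sided. Of these features 0% were called at an adjusted p under 0.05 by edgeR, 13.7% (61) had an unadjusted p under 0.05, and the DESeq2 Wald test called 2.25% (10), with no member among them. In 9.23% the groups did not overlap with NPPC higher, and 6.31% had an unadjusted p under 0.05 with NPPC higher. These values are relative to the other counts of a library. In bulk exosome RNA, more miR-29a-3p per vesicle, more vesicles that carry it and less of other miRNAs cannot be told apart.

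**Figure D1:**
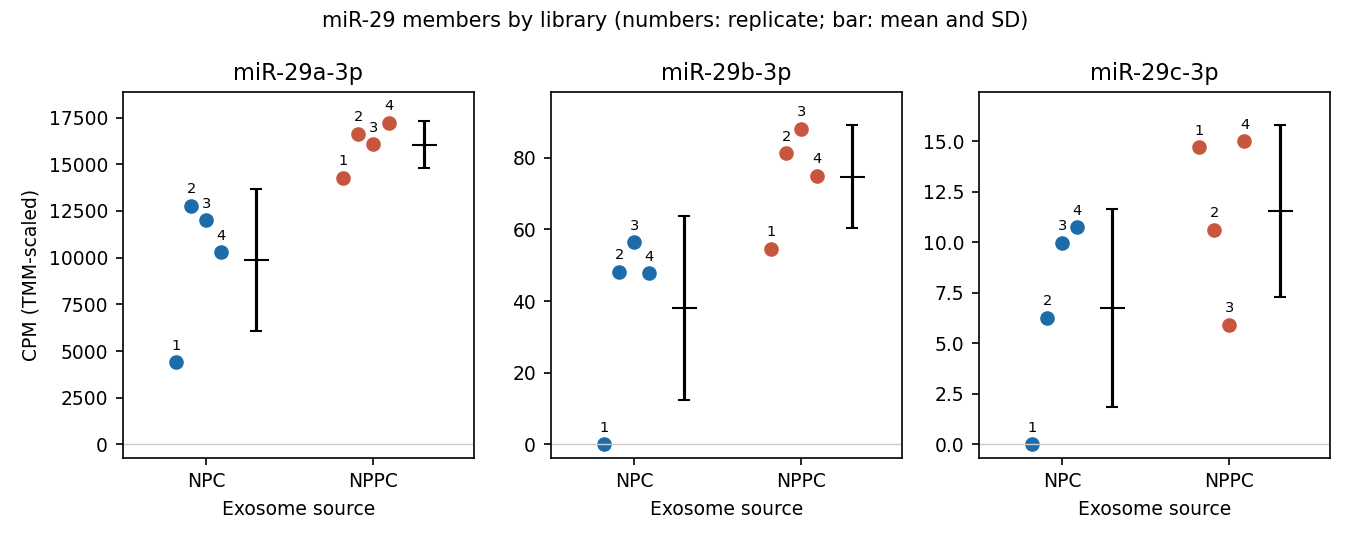
TMM-scaled CPM of each miR-29 member (vertical axes, linear and different for each panel) in the NPC and NPPC libraries, with numbers giving the replicate and black bars the mean and SD of 4 libraries. For miR-29a-3p the NPPC libraries lie between 14287 and 17225 CPM and the NPC libraries between 4403 and 12782, while the groups overlap for miR-29b-3p and miR-29c-3p, and NPC replicate 1 is lowest in all 3 panels.

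Without both libraries numbered 1, miR-29a-3p passed. NPC replicates 2 to 4 then held 11577, 10829 and 9383 CPM and NPPC replicates 2 to 4 held 15234, 14380.4 and 15975 CPM. The spread within the groups was far smaller than with NPC replicate 1 included, and the groups again did not overlap, as in 18.2% of features of this fit with NPPC higher. The log2 fold change was 0.52 ± 0.098 (SE), lower than with all libraries, and the adjusted p by edgeR's quasi-likelihood test was 0.0311 over 477 features. In this fit 9.85% of features were called, in either direction, and miR-29a-3p was 1 of these 47. Over the 24 alternative settings its adjusted p ran from 0.0311 to 0.882, and this was the single setting in which it passed. With NPC replicate 1 alone left out, the log2 fold change was 0.42 and the adjusted p 0.149. With NPPC replicate 1 alone left out they were 0.77 and 0.417.

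miR-29b-3p, which comes from both hairpin pairs, was present at a small part of the level of miR-29a-3p. Its pair of rows, 1 for each hairpin, held equal values in every library and were summed. The sums were 0, 30, 33 and 26 counts in NPC replicates 1 to 4 and 43, 78, 108 and 82 in NPPC replicates 1 to 4. In TMM-scaled CPM these were 0, 48.2, 56.4 and 47.7 in NPC and 54.6, 81.3, 88.1 and 74.9 in NPPC libraries. NPPC replicate 1 lay below NPC replicate 3, so the groups overlapped on this scale. The means were 38.1 ± 25.7 CPM (SD, n = 4) and 74.7 ± 14.4 CPM (SD, n = 4). The log2 fold change was 0.97 ± 0.85 (SE), with an unadjusted p of 0.285 and an adjusted p of 0.603 by edgeR.

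NPC replicate 1 listed no miR-29b-3p at all. If that 0 means that no read was found, it allows up to 9.12 CPM of the unscaled total (3 counts). Whether low counts were set to 0 before deposit was not tested, and the bound would then be higher. The other NPC libraries held 48.4 to 48.5 CPM on that scale. In the 7 libraries that listed it, miR-29b-3p stood at 3.77 to 5.48 counts per 1000 of miR-29a-3p. At the lowest of these ratios, the 2640 miR-29a-3p counts of NPC replicate 1 would go with 9.96 of miR-29b-3p. When both libraries numbered 1 were left out, the values were 43.7, 50.9 and 43.5 CPM in NPC and 74.4, 78.8 and 69.5 CPM in NPPC exosomes, and the groups did not overlap. This is the same fit in which 18.2% of features did so with NPPC higher. NPPC over NPC then gave a log2 fold change of 0.69 ± 0.21 (SE), with an unadjusted p of 0.0127 and an adjusted p of 0.0913 by edgeR, so miR-29b-3p did not pass. Over its 24 alternative settings the adjusted p ran from 0.0913 to 0.784.

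miR-29c-3p, which differs from miR-29a-3p by C10T alone, was close to the limit of detection. It held 0, 3.5, 6 and 6 counts in NPC replicates 1 to 4 and 11.5, 10, 7 and 16 in NPPC replicates 1 to 4. Where miR-29c-3p had a fractional count, so did miR-29a-3p, and the sources used here do not say how reads were divided between them. miR-29c-3p did not pass the filter on low counts. In the fit without a filter it stood at 0, 6.26, 9.98 and 10.7 CPM in NPC and at 14.7, 10.6, 5.91 and 15.0 CPM in NPPC libraries. NPPC replicate 3 lay below 3 of the NPC libraries, so the groups overlapped. For miR-29c-3p the log2 fold change was 0.76 ± 1.38 (SE) and the adjusted p over 1472 features was 0.769 by edgeR. Its share in NPPC replicate 3 was 4.94 CPM of the unscaled total with an exact 95% binomial interval of 1.99 to 10.2, which shows how little this depth can tell of miR-29c-3p.

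The order of the members was the same in the 7 libraries that listed all 3. On the scale of read counts of sequences 22 or 23 bases long, miR-29a-3p was far above miR-29b-3p, and miR-29b-3p was above miR-29c-3p. The lowest miR-29b-3p count of these libraries, 26, was above the highest miR-29c-3p count, 16. The ratio of miR-29b-3p to miR-29a-3p does not depend on how libraries are scaled, and it was computed after the values had been seen. It was 3.28 ± 2.23 per 1000 (SD, n = 4) for NPC exosomes and 4.63 ± 0.712 per 1000 (SD, n = 4) for those of NPPC, and an exact permutation test, two-sided, gave p = 0.343 (adjusted p = 0.533 over 4 tests). In replicates 2 to 4 it was 4.37 ± 0.518 (SD, n = 3) and 4.90 ± 0.566 (SD, n = 3), with an exact permutation p of 0.400, where 3 against 3 cannot go below 0.10. The ratio of miR-29c-3p to miR-29a-3p was 0.591 ± 0.473 per 1000 (SD, n = 4) for NPC exosomes and 0.713 ± 0.288 (SD, n = 4) for those of NPPC, and the exact permutation test gave p = 0.743. In replicates 2 to 4 its direction turned, to 0.788 ± 0.320 (SD, n = 3) and 0.610 ± 0.247 (SD, n = 3), where the exact permutation p was 0.400. With all libraries the SD among NPC libraries was larger than either difference.

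The members' differences lay among those of other miRNAs of like base composition. Among 105 tested rat miRNAs with a GC content of 40% to 50%, the class that holds miR-29a-3p, the median log2 fold change was 0.44 and 80% were above 0. The value of miR-29a-3p ranked 28th of these 105. Among 53 with less than 40% GC the median was 0.65 and 94.3% were above 0, and miR-29b-3p ranked 12th of them. In the class of 50% to 60% the median was 0.030 over 81 miRNAs, and at 60% or more it was -0.13 over 39. Leaving out both libraries numbered 1, the medians from low to high GC were 0.34, 0.25, 0.016 and -0.062. miR-29a-3p then ranked 32nd of 108 in its class and miR-29b-3p 13th of 55.

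**Figure D2:**
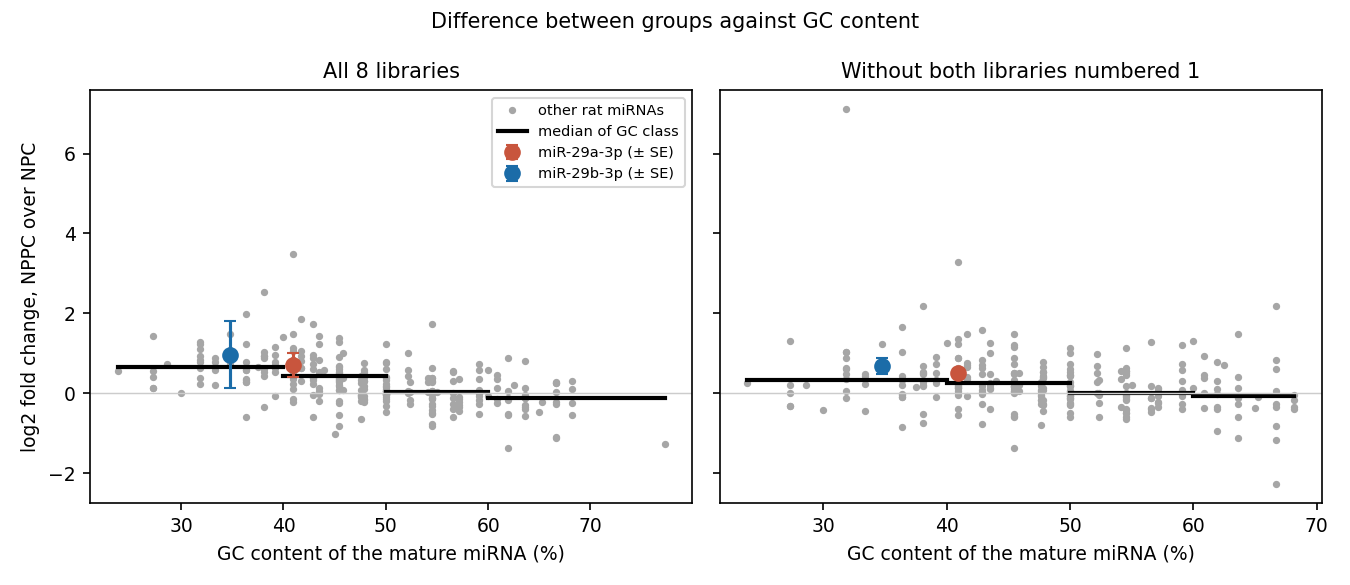
log2 fold change of NPPC over NPC (vertical axis) against the GC content of the mature miRNA in percent (horizontal axis) for tested rat miRNAs, with all 8 libraries and without both libraries numbered 1; black lines are medians of GC classes and coloured points with SE bars are miR-29a-3p and miR-29b-3p. The medians fall from 0.65 under 40% GC to -0.13 at 60% or more with all libraries, and both members lie above the median of their class in each panel.

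The same values moved with GC content library by library. Relative to its mean log2 CPM over the 8 libraries, miR-29a-3p was at -1.46 in NPC replicate 1, and the median of the 105 miRNAs of its GC class was at -1.16 there. In the other NPC libraries miR-29a-3p stood at 0.080, -0.011 and -0.23 and its class at 0.022, 0.23 and -0.062. In the NPPC libraries miR-29a-3p stood at 0.24, 0.46, 0.41 and 0.51 and its class at 0.19, 0.29, 0.34 and 0.35. In every library but NPC replicate 3, miR-29a-3p thus lay on the same side as its class and farther out. Its GC content of 40.9% is near the lower edge of that class. The median of the class under 40% GC stood at -3.40, 0.23, 0.62 and 0.22 in NPC replicates 1 to 4. In NPPC replicates 1 to 4 that median stood at 0.52, 0.71, 0.59 and 0.81, farther out than miR-29a-3p. After a loess correction of each library on GC content, the log2 fold change of miR-29a-3p was 0.092 ± 0.16 (SE) with an adjusted p of 0.882 by edgeR, where 0.225% of features were called, and that of miR-29b-3p was 0.50 ± 0.46 (SE) with an adjusted p of 0.729. With this correction and without both libraries numbered 1, they were 0.22 ± 0.093 (SE) and 0.30 ± 0.21 (SE), with adjusted p values of 0.200 and 0.474 by edgeR, where 0.629% of features were called. Both stayed above 0, and the call of miR-29a-3p without both libraries numbered 1 was lost. With the correction of all 8 libraries, NPC replicate 1 went from the lowest to the highest library for miR-29a-3p, at 15796 CPM. NPC replicates 2 to 4 held 11628, 9778 and 10107 CPM, below all NPPC libraries, at 12382, 12549, 12150 and 13345 CPM. With this correction and without NPC replicate 1, miR-29a-3p had a log2 fold change of 0.24 (adjusted p = 0.219 by edgeR). Without the correction, the same libraries gave 0.42. The corrected fit without NPC replicate 1 was added after the data were seen. The part of GC content in the difference between the groups beyond this correction was not tested.

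The profile of miR-29a-3p over the 8 libraries was most like those of 5 other rat miRNAs. Likeness was the mean absolute difference between log2 CPM profiles, each centred on its own mean, and its median over 277 rat miRNAs was 0.50. It was 0.12 for miR-106b-5p and 0.14 for miR-19b-3p, both of the miR-17-92 cluster or its relatives, which promote proliferation. For miR-196b-5p, from a Hox cluster, it was 0.15, as it was for miR-411-3p, from the imprinted Dlk1-Dio3 region. For let-7d-5p, of the let-7 family that restrains growth genes, it was 0.17. Their log2 fold changes were 0.74, 0.80, 0.39, 0.97 and 0.66 in this order, with adjusted p values from 0.285 to 0.615 by edgeR. All 5 had a GC content between 39.1% and 42.9%, against 40.9% in miR-29a-3p. miR-29b-3p, with the same seed, was 201st of these 277 at 0.67, with its widest gap to miR-29a-3p in NPC replicate 1, where it was listed at 0. Over the other 7 libraries, a calculation added after the values had been seen, it was 25th at 0.15, and the 5 miRNAs above ranked between 10th and 40th at 0.11 to 0.17, against a median of 0.28.

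**Figure D3:**
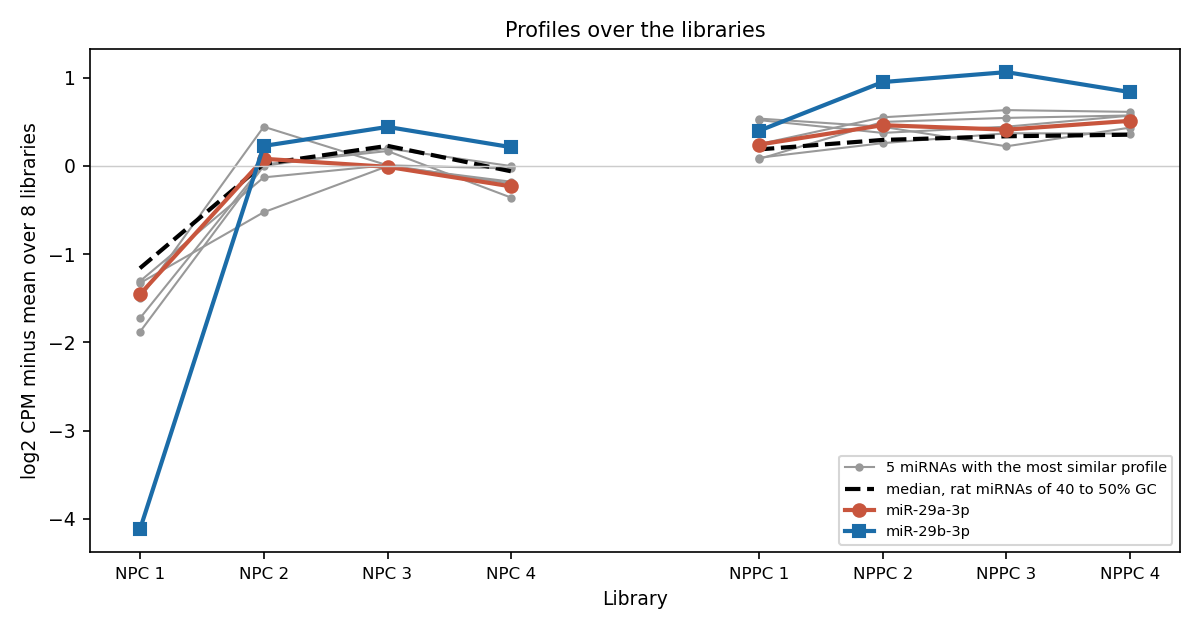
log2 CPM minus the mean over the 8 libraries (vertical axis) in each library (horizontal axis) for miR-29a-3p, miR-29b-3p, the 5 rat miRNAs with the most similar profile to miR-29a-3p (grey) and the median of rat miRNAs of 40% to 50% GC (dashed); lines only join the values of 1 miRNA within a group. miR-29a-3p is at -1.46 in NPC replicate 1 and between 0.24 and 0.51 in the NPPC libraries, and miR-29b-3p, listed at 0 counts in NPC replicate 1, is lowest there.

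Other miRNAs known to act on matrix and fibrosis did not pass the test with all libraries. Of 18 on this list 16 were tested and 0 were called in either direction, as were 0% of all features in this fit. By edgeR 2 (miR-34a-5p and miR-145-5p) had an unadjusted p under 0.05, a share near the 13.7% over all features. Values above 0 were found for 11 of 16, with a median of 0.36, against 0.052 over all features, 52% of which were above 0, and 0.30 over rat miRNAs. miR-21-5p, which favours fibrosis by repressing Smad7, had the highest level, with 218493 ± 135876 CPM (SD, n = 4) for NPC exosomes and 336894 ± 33128 CPM (SD, n = 4) for those of NPPC. Its log2 fold change was 0.62 (adjusted p = 0.615 by edgeR). miR-199a-5p, which represses caveolin-1 in fibrotic tissue, was at 66045 ± 412 CPM (SD, n = 4) and 66002 ± 2624 CPM (SD, n = 4), with -0.00094 (adjusted p = 0.995). miR-26a-5p, which represses CTGF and collagen, had 0.55 (adjusted p = 0.603). Without both libraries numbered 1, miR-145-5p, which promotes smooth muscle and myofibroblast genes, rose by 0.51 (adjusted p = 0.0489 by edgeR). That fit called 9.85% of features. With total count scaling of all 8 libraries its log2 fold change was -0.0095.

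Other miRNAs known to act on cartilage matrix or on DNA methyltransferases did not pass with all libraries either. All 5 cartilage miRNAs were tested and 0 were called, as were 0% of all features in this fit. Their median log2 fold change was 0.076, against 0.30 over rat miRNAs. miR-140-3p, from the hairpin inside Wwp2 that guards cartilage against its proteases, had a mean of 10879 ± 1881 CPM (SD, n = 4) in the NPC libraries and of 7585 ± 423 CPM (SD, n = 4) in the NPPC libraries. Its log2 fold change was -0.52 (adjusted p = 0.277 by edgeR). Without both libraries numbered 1, miR-140-3p fell by 0.40 (adjusted p = 0.0311 by edgeR), in a fit that called 9.85% of features. miR-27b-3p, known to repress Mmp13, had 0.076, and miR-140-5p, known to repress Adamts5, had 0.37. The DNA methyltransferase list held the miR-148 and miR-152 family, which represses Dnmt1, while miR-29 represses Dnmt3a and Dnmt3b. All 3 were tested and 0 were called, again as for all features, with miR-148a-3p at -0.14, miR-148b-3p at 0.24 and miR-152-3p at -0.038. In the same fit without both libraries numbered 1, miR-148a-3p fell by 0.40 (adjusted p = 0.0490 by edgeR). After the GC correction of all 8 libraries miR-148a-3p stood at -0.72.

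The sign of the miR-29a-3p and miR-29b-3p values did not depend on the scaling, but their size did. With total count scaling the median of all features moved to -0.35, and the values were 0.44 for miR-29a-3p and 0.82 for miR-29b-3p, or 0.80 and 1.18 above that median. With TMM they were 0.65 and 0.92 above the median of 0.052. Under total count scaling the groups did not overlap for miR-29a-3p or for miR-29b-3p, with NPPC higher, which held in 5.41% of features. For miR-29b-3p the highest NPC library was then at 48.7 CPM and the lowest NPPC library at 52.5 CPM, a narrow gap. Over all 24 alternative settings both values were above 0, from 0.092 to 0.85 for miR-29a-3p and from 0.25 to 2.06 for miR-29b-3p.

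**Figure D4:**
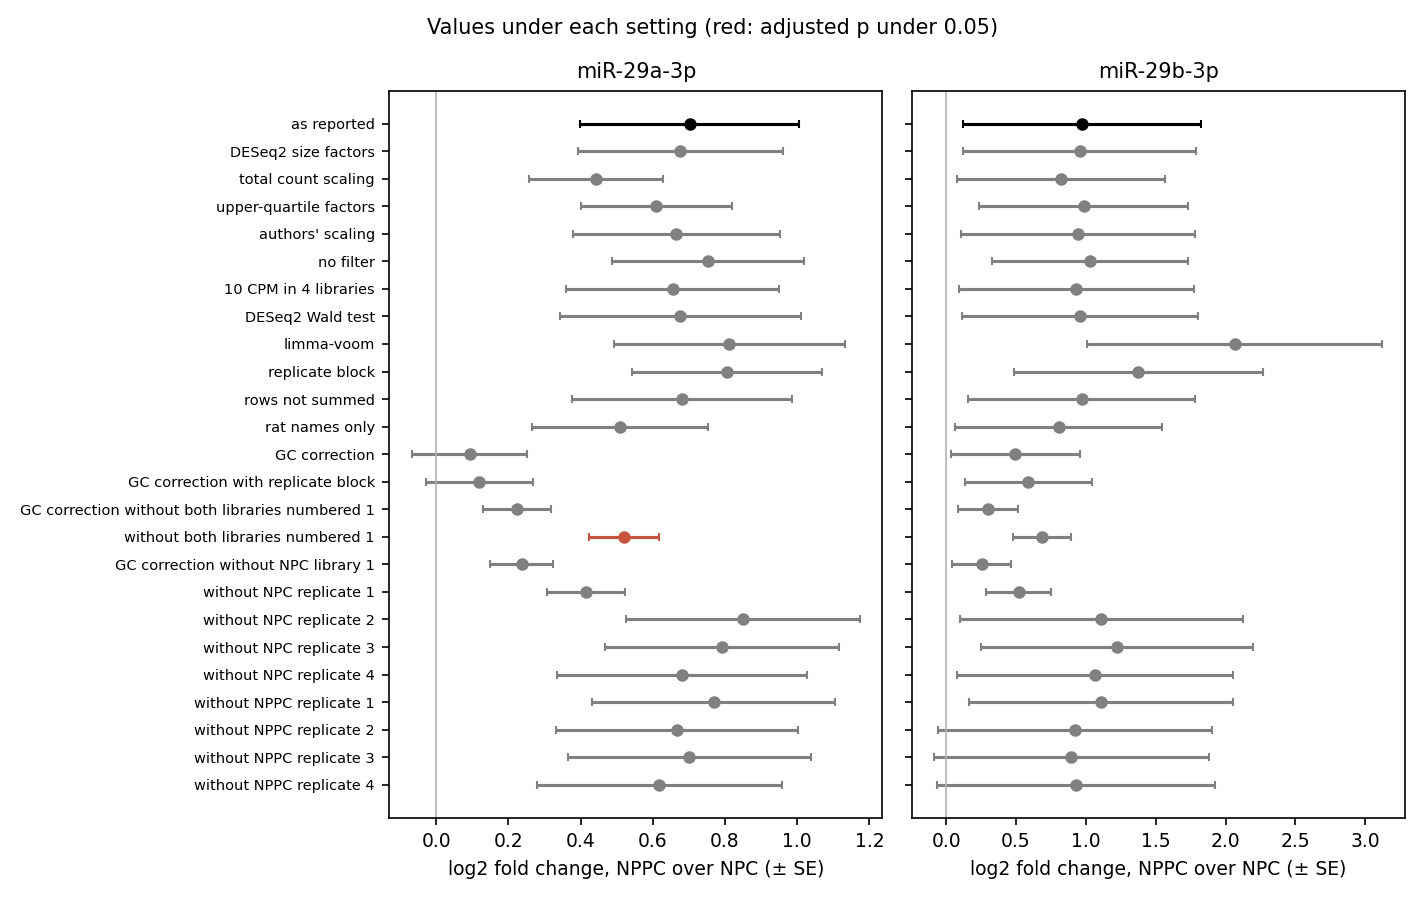
log2 fold change of NPPC over NPC with SE bars (horizontal axes, different scales) for miR-29a-3p and miR-29b-3p under the reported fit and 24 alternatives (vertical axis), with red for an adjusted p under 0.05. All points lie above 0, the 2 lowest of miR-29a-3p are those with a GC correction of all 8 libraries (0.092 and 0.12), and the 1 red point is miR-29a-3p without both libraries numbered 1.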

How the data were processed

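Per the labels' protocols, total RNA came from the Total Exosome RNA Isolation Kit, and the TruSeq Small RNA kit gave the libraries. The submitters' processing notes name CASAVA 1.8. For aligner, miRBase version and genome build the sources used here name none. For 1512 rows the authors deposited estimated counts. Of 139 sequences found in several rows, all 139 had equal values in them, with fractions, so rat rows were summed per mature name, giving 1472 features, and rounded. The deposited scaled signal columns served as an alternative scaling. Groups came from sample titles.

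The test was edgeR 4.0.16 in R 4.3.3 (TMM, filterByExpr, quasi-likelihood, group as the only term), with Benjamini-Hochberg adjustment over 444 features. The SE of an edgeR log2 fold change was derived, as its absolute value divided by the square root of the test's F statistic. log2 CPM used a prior count of 2, and the GC correction a loess span of 0.75 as an offset. Alternatives used DESeq2 1.42.0 and limma 3.58.1. Python 3.11.15, scipy 1.17.1 and matplotlib 3.10.9 served for the rest. Replicates differed by more than sampling noise (chi-square per degree of freedom of at least 19.2). Tested on simulated data of all 8 libraries, edgeR recovered 17.8% of features changed 2-fold and 65.9% of those changed 4-fold over 405 features. Without both libraries numbered 1 it recovered 41.9% and 80.6% over 449. It also called 1 unchanged feature with all libraries and 4 without both libraries numbered 1. The simulated counts held no shift of a library with GC content, and the changed features were drawn at random from all levels.

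The members, the lists and the tests were chosen with earlier results of these data known. Named miRNAs were the members, their 5′ arms, the 5 closest profiles, and, from each list, the 3 most abundant and any with an adjusted p under 0.05. miR-34a-5p, miR-145-5p, miR-223-3p and miR-141-3p were named after their values were seen.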

Additional observations from a re-analysis of the deposited data

Results flagged for a closer look

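In 5 of 40 groups of 4 libraries, each taken for 1 measure, 1 library was distant from the remaining 3. About 1 in 20 is what chance alone flags. For NPC replicate 1, miR-29b-3p was at 0 CPM (others 47.7 to 56.4), let-7d-5p at 1939.8 CPM (others 7143 to 8204) and miR-148b-3p at 389 CPM (others 1224 to 1349). In NPPC replicate 1, let-7d-5p was at 7548 CPM (others 10107 to 10634) and miR-27b-3p at 54909 CPM (others 62344 to 63109). miR-29a-3p and miR-29c-3p were not among them.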

How the results depend on the processing

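The log2 fold change of miR-29a-3p kept its direction in 24 of 24 alternatives and did not pass in 23. It passed without both libraries numbered 1, at 0.52, where the number of members called was 1 and not 0. The value of miR-29b-3p kept its direction and did not pass in 24 of 24. That of miR-29c-3p kept its direction in 22 of 23 and did not pass in any of them. It turned to -0.050 with the GC correction without both libraries numbered 1, and the filter of 10 CPM left no value for it. For miR-29c-3p the alternative with no filter is the reported fit itself, so it could not differ. The 3 members summed gave 0.70, and 0.097 with the GC correction and 0.12 with that correction and the replicate block. The number of features called, 0 as reported (61 at an unadjusted p under 0.05 by edgeR), was 1 with upper-quartile factors, total count scaling, DESeq2 size factors, the authors' scaling, 10 CPM in 4 libraries, limma-voom, rat names only and the GC correction, with or without the block. It was also 1 with the GC correction without NPC replicate 1, an alternative added after the data were seen. It was 2 with no filter, 3 with the GC correction without both libraries numbered 1, 10 with the DESeq2 Wald test and 47 without both libraries numbered 1. The cause was not tested. With each library left out in turn it ran from 0 to 2, the latter without NPC replicate 1, members called stayed at 0, and the values ran from 0.42 to 0.85 for miR-29a-3p, 0.52 to 1.22 for miR-29b-3p, 0.36 to 1.07 for miR-29c-3p and 0.42 to 0.85 for the sum. The lowest values were those without NPC replicate 1.

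Replicate numbers were shared between the groups, but same-numbered libraries correlated over 0.1 in only 3 of 4 numbers, with r of 0.57, 0.16, 0.22 and 0.035 in deviations across features. Only 2 of 8 libraries correlated best with their own number, NPC replicate 1 and NPPC replicate 1. With the other numbers of the other group, these 2 correlated at r from -0.52 to -0.20. With the replicate block miR-29a-3p had 0.81 (adjusted p = 0.260 by edgeR), miR-29b-3p 1.38, miR-29c-3p 1.01, and 0 features were called. The SE of miR-29b-3p was 0.85 with all libraries and 0.21 without both libraries numbered 1. For miR-29c-3p, no library held more than 16 counts.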

Other observations

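The count of 0 for miR-29b-3p in NPC replicate 1 was shared by other miRNAs of low GC content. Of the 53 tested rat miRNAs under 40% GC, 25 were listed at 0 in that library, against 1, 1 and 2 in the other NPC libraries and 0 in each NPPC library. Of the 105 from 40% to 50% GC, 10 were listed at 0 there, against 2, 2 and 4 in the other NPC libraries. Of the 39 at 60% GC or more, 0 were listed at 0 there and 1, 2 and 3 in the other NPC libraries, with 2 in NPPC replicate 3 and 0 in the other NPPC libraries.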
